A study of Mus musculus with 84 samples.

Results

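The cell cycle genes described here are 45 mouse genes, from the G1 cyclins through the replication and mitosis machinery to the proliferation markers Mki67 and Top2a. They were chosen by name as known proliferation genes, and their rows were found in liver RNA counts through the gene symbols that the authors pair with gene identifiers. All 45 were present among 37310 gene identifiers, and all 45 passed the filter on low counts that left 16195 genes for testing. Livers came from female mice of 14 strains, 129S1/SVIMJ, NZO/HILTJ, A/J, FVB/NJ, DBA1/J, BALB/CJ, C57BL6/J, NOD/SHILTJ, CBA/J, C3HeB/FeJ, the recombinant inbred lines BXD91/2RwwJ, BXD-40/TyJ and BXD100/RwwJ, and the Collaborative Cross line CC019/TauUnc. Each strain had 3 libraries from mice given vehicle and 3 from mice given TCDD (2,3,7,8-tetrachlorodibenzo-p-dioxin, a ligand of the aryl hydrocarbon receptor), 84 libraries in 28 groups. Every mouse ate peanut butter on 10 successive days, carrying 0.1 µg/kg TCDD per day or none, began at 6 to 8 weeks of age once a mating plug was seen, and was killed on day 11. Per the study's design only mice with embryos or absorption sites in the uterus were kept, and the groups held no unmated mice. The strain labelled DBA1/J is headed DBA/J in the authors' deposited table, and the names of its count files point to a DBA2J reference, so which DBA strain it is remains uncertain. Nothing in the labels ties a library to a single animal, and the p-values given here measure the spread between libraries, which may be technical.

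A cell that leaves quiescence first makes D-type and E-type cyclins, which with their kinase partners release the E2F transcription factors. E2F factors then switch on the genes of DNA replication, and a later wave driven by B-MYB, FOXM1 and the MuvB complex switches on the genes of mitosis. Adult hepatocytes are mostly quiescent, and in mice and rats the maternal liver is known to enlarge in pregnancy, with both growth and division of hepatocytes.

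Levels are given in CPM, the count of a gene in each 1 M gene counts of its library, and differences as log2 fold changes from the fit described under the processing. Libraries held 9122406 to 19689624 gene counts, with a median of 16202909. Across members the median count per library ran from 5 for Bub1, a spindle checkpoint kinase, to 1502 for Ccnd1 (cyclin D1). The median was under 10 counts in 4 members and under 30 in 16, and 11 members had no count in at least a single library. Per kilobase of exon, Ccnd1 was the most abundant member (median 20.4 CPM per kb), followed by Gmnn at 4.00 and Pcna at 3.46, and Bub1 was the lowest at 0.0754. Reads of near-identical copies cannot be told apart with certainty, and the annotated pseudogenes Pcna-ps2 and Ccnb1-ps themselves had median levels of 9.06 and 1.04 CPM, so Pcna and Ccnb1 levels are uncertain to that extent. The kit does not mark strand, so reads from an antisense gene would be counted with a member.

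The 10 hepatocyte markers summed to 64479 to 112215 CPM in every library, as the label liver says. Several libraries stood apart from the others of their group. Over the 45 members, the median log2 deviation from the group mean was lowest in CC019/TauUnc vehicle 1 (−1.26), C57BL6/J TCDD 3 (−1.19) and 129S1/SVIMJ TCDD 1 (−1.07). In these libraries 37, 41 and 38 members lay below both other libraries of the group. The share of all genes is not given beside these counts, so they do not say how far the shift is particular to the members. C57BL6/J TCDD 3 also had the fewest gene counts of all libraries, 9122406. The next lowest were C57BL6/J vehicle 3 (−0.49) and NOD/SHILTJ TCDD 3 (−0.40). The highest were 129S1/SVIMJ TCDD 3 (1.04), CC019/TauUnc vehicle 2 (0.97), C57BL6/J TCDD 2 and vehicle 1 (0.63 each) and CBA/J vehicle 2 (0.54). The library A/J vehicle 2 held summed marker levels of 1994 CPM for skeletal muscle, 441.6 CPM for adrenal cortex and 307.5 CPM for pancreas acini, where the muscle sum of the other 5 A/J libraries was 0.428 to 1.81 CPM.

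The 3 lowest libraries also stood apart in A1bg and Prlr. The summed level of the 27 mitosis genes was 18.7 CPM in CC019/TauUnc vehicle 1, 22.1 CPM in 129S1/SVIMJ TCDD 1, 30.4 CPM in NZO/HILTJ TCDD 1 and 33.1 CPM in C57BL6/J TCDD 3, against 34.96 to 211.6 CPM in the other 80 libraries. NZO/HILTJ TCDD 1 was thus among the 4 lowest in this sum, although it was not among the 3 lowest in deviation from its group. A1bg was at 1.53 CPM in C57BL6/J TCDD 3, 34.8 in CC019/TauUnc vehicle 1 and 23.6 in 129S1/SVIMJ TCDD 1, and at 3513 CPM in NZO/HILTJ TCDD 1 and 2369 to 18274 CPM in the other 80. Prlr, the prolactin receptor, was at 98.7, 168 and 251 CPM in the 3, in the same order, 348 CPM in NZO/HILTJ TCDD 1 and 362 to 1200 CPM in the others. A1bg and Prlr were chosen after their values were seen, and their part in the results was not tested. The design gives these 3 libraries the same pregnancy status as all others, and with A1bg far below every other library it is uncertain whether that label holds for them. Several results that rest on these libraries are given with and without them. The 3 were picked in part as the lowest in these same members, so leaving them out lowers the members' spread by construction. Smaller p-values without them are therefore no separate support for a strain difference in any member.

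**Figure D1:**
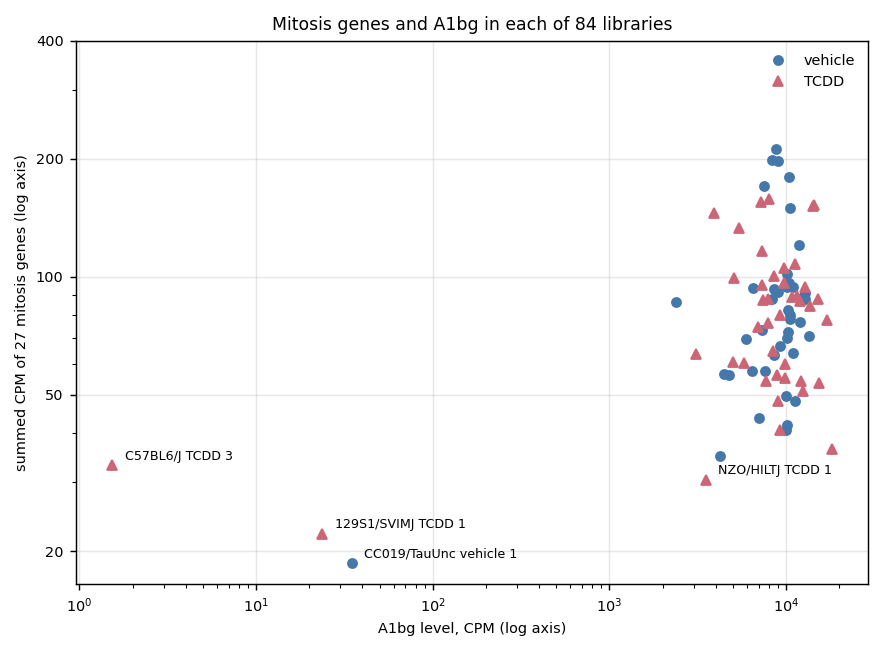
The summed level of the 27 mitosis genes (CPM, log axis) against the level of A1bg (CPM, log axis) in each of the 84 libraries, vehicle as circles and TCDD as triangles. The 3 libraries at 1.53 to 34.8 CPM of A1bg have mitosis sums of 18.7 to 33.1 CPM, NZO/HILTJ TCDD 1 has a sum of 30.4 CPM with 3513 CPM of A1bg, and the others lie at 2369 CPM or above.

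Promoter sequences are shown for 6 of the 10 members with the smallest p between vehicle strains, those with an entry in the promoter table, because replication and mitosis genes are known to carry different elements. The windows are the 250 bases before the first listed start, from RefSeq on build GRCm38.p6, written 5′ to 3′ on the gene's strand. Capitals mark matches, on either strand, to an E2F element (TTTCCCGC or TTTGGCGC), to CCAAT, the element read by NF-Y, and to the cell cycle homology region (CHR, TTTGAA or TTCGAA), known from mitosis genes. Rrm2 lies at chr12:24708004-24708253, plus strand. Mcm6 lies at chr1:128359706-128359955 and Pcna at chr2:132253181-132253430, both on the minus strand. Ube2c lies at chr2:164769679-164769928 and Plk1 at chr7:122159185-122159434, both on the plus strand, and Aurka at chr2:172370571-172370820 on the minus strand.
Rrm2: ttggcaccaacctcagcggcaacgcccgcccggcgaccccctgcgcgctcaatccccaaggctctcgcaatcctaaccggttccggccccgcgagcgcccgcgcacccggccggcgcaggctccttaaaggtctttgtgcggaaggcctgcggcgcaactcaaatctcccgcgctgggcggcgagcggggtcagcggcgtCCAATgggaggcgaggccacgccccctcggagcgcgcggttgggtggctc
Mcm6: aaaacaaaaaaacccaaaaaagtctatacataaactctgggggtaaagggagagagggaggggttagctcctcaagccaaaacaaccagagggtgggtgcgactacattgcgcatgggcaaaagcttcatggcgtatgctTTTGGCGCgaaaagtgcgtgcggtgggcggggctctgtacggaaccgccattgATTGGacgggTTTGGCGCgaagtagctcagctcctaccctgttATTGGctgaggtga
Pcna: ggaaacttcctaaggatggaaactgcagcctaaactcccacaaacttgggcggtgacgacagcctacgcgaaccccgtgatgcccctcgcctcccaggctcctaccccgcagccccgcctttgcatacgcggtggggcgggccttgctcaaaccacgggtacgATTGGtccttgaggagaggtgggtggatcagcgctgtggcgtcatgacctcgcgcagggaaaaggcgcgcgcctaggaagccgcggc
Ube2c: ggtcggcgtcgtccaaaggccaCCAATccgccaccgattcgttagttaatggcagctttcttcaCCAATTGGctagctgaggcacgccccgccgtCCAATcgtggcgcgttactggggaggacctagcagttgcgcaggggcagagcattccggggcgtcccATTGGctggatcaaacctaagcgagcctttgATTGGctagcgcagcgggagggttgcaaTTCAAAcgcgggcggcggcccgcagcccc
Plk1: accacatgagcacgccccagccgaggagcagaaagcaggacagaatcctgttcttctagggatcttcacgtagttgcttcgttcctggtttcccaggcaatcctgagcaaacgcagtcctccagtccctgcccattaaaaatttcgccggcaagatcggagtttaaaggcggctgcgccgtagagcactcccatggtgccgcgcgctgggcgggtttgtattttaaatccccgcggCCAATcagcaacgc
Aurka: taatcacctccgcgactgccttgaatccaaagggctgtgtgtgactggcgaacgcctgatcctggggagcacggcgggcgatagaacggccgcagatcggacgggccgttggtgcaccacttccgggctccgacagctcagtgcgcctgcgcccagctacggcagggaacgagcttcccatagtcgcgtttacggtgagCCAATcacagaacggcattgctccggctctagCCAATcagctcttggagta

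The Mcm6 window held 2 E2F matches and 2 CCAAT matches, and the Ube2c window held 6 CCAAT matches, 2 of them overlapping, and 1 CHR match. Of the 45 members, 36 had an entry. An E2F match was found in 4 of 36 (11.11%), Mcm5, Mcm6, Mcm7 and Cdc6, which are 4 of the 12 replication genes with an entry, against 1.35% of all 27025 promoters. CCAAT was found in 28 of 36 (77.78%), 19 of 22 mitosis genes and 9 of 12 replication genes, against 34.46% of all. A CHR match was found in 13 of 36 (36.11%), 10 of them among the 22 mitosis genes, against 17.43% of all. A match says only that these letters are in the window.

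The comparison of strains asked whether liver levels of the members depend on genetic background. Among vehicle groups, 24 of 45 members differed between the 14 strains at an adjusted p below 0.05 (edgeR quasi-likelihood test, Benjamini-Hochberg adjustment over all genes), close to the 46.8% of all genes tested. Among TCDD groups 16 of 45 differed, against 45.3% of all genes, and 15 members differed in both, 62.5% of the first set and 93.8% of the second. Over all genes 5645 differed in both, 74.5% of the vehicle set and 77.0% of the TCDD set. By role, 3 of 4 G1 genes, 5 of 14 replication genes and 16 of 27 mitosis genes differed among vehicle groups. The counts among TCDD groups were 3 of 4, 6 of 14 and 7 of 27. In bulk liver, fewer dividing cells and less RNA per dividing cell cannot be told apart. Without the 3 lowest libraries the counts were 31 and 30 members, where 50.5% and 45.1% of all genes were called. The added calls were mostly mitosis genes, with 23 of 27 called among vehicle and 20 of 27 among TCDD groups. Those libraries were picked in part for low levels of these same members, so the rise is no separate support.

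The G1 genes set the pace of entry into the cycle. Ccnd1 encodes cyclin D1, the partner of CDK4 and CDK6. Values below are mean ± SD in CPM over 3 libraries, from the highest strain to the lowest. Mean Ccnd1 with vehicle was 225 ± 72.5 for FVB/NJ, 217 ± 94.2 for C57BL6/J, 166.6 ± 32.6 for NOD/SHILTJ, 148 ± 70.2 for BXD-40/TyJ, 146.3 ± 37.5 for CC019/TauUnc, 131 ± 34.2 for A/J and 111 ± 32.5 for BXD100/RwwJ. Ccnd1 in the other vehicle groups was 99.9 ± 22.8 for BXD91/2RwwJ, 95.3 ± 27.97 for 129S1/SVIMJ, 79.6 ± 28.4 for DBA1/J, 67.8 ± 9.10 for BALB/CJ, 57.7 ± 24.4 for CBA/J, 55.6 ± 16.9 for C3HeB/FeJ and 25.02 ± 12.2 for NZO/HILTJ. All 3 NZO/HILTJ vehicle libraries, at 17.6 to 39.1 CPM, lay below all libraries of 12 of the other 13 strains. Mean Ccnd1 with TCDD was 183 ± 76.6 for BXD-40/TyJ, 181.3 ± 4.93 for FVB/NJ, 167.01 ± 39.2 for DBA1/J, 131.8 ± 98.4 for C57BL6/J, 105 ± 19.9 for A/J, 102 ± 48.0 for 129S1/SVIMJ and 94.5 ± 8.58 for CC019/TauUnc. Ccnd1 in the other TCDD groups was 81.2 ± 31.9 for BXD91/2RwwJ, 78.2 ± 37.4 for CBA/J, 71.6 ± 21.3 for C3HeB/FeJ, 68.8 ± 38.5 for NOD/SHILTJ, 66.6 ± 5.10 for BXD100/RwwJ, 56.7 ± 11.3 for BALB/CJ and 35.05 ± 17.2 for NZO/HILTJ. NZO/HILTJ was again the lowest, and the strains differed within both treatments (adjusted p = 1.44e-06 with vehicle and 8.23e-05 with TCDD, edgeR).

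Ccne1 encodes cyclin E1, the partner of CDK2. Mean Ccne1 with vehicle was 4.60 ± 2.27 for BALB/CJ, 4.24 ± 4.79 for CC019/TauUnc, 4.03 ± 0.428 for FVB/NJ, 3.95 ± 2.23 for DBA1/J, 3.03 ± 1.24 for 129S1/SVIMJ, 2.63 ± 1.04 for CBA/J and 2.32 ± 0.583 for NOD/SHILTJ. Ccne1 in the other vehicle groups was 2.22 ± 0.528 for A/J, 1.88 ± 1.16 for C57BL6/J, 1.74 ± 0.668 for C3HeB/FeJ, 1.70 ± 0.904 for BXD91/2RwwJ, 1.47 ± 0.680 for BXD-40/TyJ, 1.22 ± 0.166 for BXD100/RwwJ and 0.731 ± 0.193 for NZO/HILTJ. BALB/CJ was highest, and the CC019/TauUnc mean had an SD larger than itself. Mean Ccne1 with TCDD was 5.56 ± 2.76 for DBA1/J, 3.78 ± 0.610 for BALB/CJ, 3.16 ± 1.21 for FVB/NJ, 2.10 ± 0.356 for BXD100/RwwJ, 1.82 ± 0.500 for C3HeB/FeJ, 1.82 ± 0.416 for C57BL6/J and 1.62 ± 0.672 for 129S1/SVIMJ. Ccne1 in the other TCDD groups was 1.44 ± 0.455 for CC019/TauUnc, 1.43 ± 0.999 for CBA/J, 1.35 ± 0.731 for A/J, 1.27 ± 0.306 for BXD-40/TyJ, 1.03 ± 0.386 for NZO/HILTJ, 0.940 ± 0.642 for NOD/SHILTJ and 0.772 ± 0.588 for BXD91/2RwwJ. With TCDD all 3 DBA1/J libraries, at 3.29 to 8.63 CPM, lay above all libraries of 11 other strains. Ccne1 differed between strains in both treatments (adjusted p = 0.0021 and 0.000455, edgeR).

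E2f1 encodes a transcription factor that activates replication genes. Mean E2f1 with vehicle was 8.31 ± 1.96 for BXD-40/TyJ, 7.56 ± 1.30 for DBA1/J, 6.76 ± 0.606 for C57BL6/J, 6.41 ± 1.51 for A/J, 5.86 ± 0.644 for BXD91/2RwwJ, 5.70 ± 1.28 for NZO/HILTJ and 5.31 ± 3.10 for CBA/J. E2f1 in the other vehicle groups was 5.06 ± 0.658 for BXD100/RwwJ, 4.88 ± 0.483 for BALB/CJ, 4.70 ± 0.999 for FVB/NJ, 4.62 ± 2.46 for CC019/TauUnc, 3.82 ± 0.886 for NOD/SHILTJ, 3.75 ± 0.420 for C3HeB/FeJ and 3.43 ± 0.637 for 129S1/SVIMJ. The 3 BXD-40/TyJ libraries lay above all libraries of 9 other strains, and the 3 129S1/SVIMJ libraries below those of 8. Mean E2f1 with TCDD was 8.99 ± 2.38 for C57BL6/J, 7.70 ± 0.445 for BXD-40/TyJ, 6.99 ± 0.880 for DBA1/J, 6.24 ± 1.45 for NZO/HILTJ, 5.53 ± 1.87 for A/J, 5.49 ± 0.810 for CC019/TauUnc and 5.37 ± 0.590 for BALB/CJ. E2f1 in the other TCDD groups was 4.66 ± 2.23 for 129S1/SVIMJ, 4.65 ± 1.07 for FVB/NJ, 4.40 ± 0.947 for BXD91/2RwwJ, 4.36 ± 0.309 for BXD100/RwwJ, 4.08 ± 0.959 for CBA/J, 3.95 ± 0.285 for C3HeB/FeJ and 3.90 ± 0.273 for NOD/SHILTJ. Strains differed within vehicle (adjusted p = 0.00585) and within TCDD groups (adjusted p = 0.00603, edgeR). Ccne2, which encodes cyclin E2, had a median of 1.79 CPM and was called in neither.

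The replication side includes the loading factors Cdc6 and Cdt1, the Cdt1 inhibitor geminin (Gmnn), the MCM helicase, Cdc45, the sliding clamp Pcna and the enzymes of nucleotide supply. Rrm2 encodes the small subunit of ribonucleotide reductase, which makes deoxynucleotides. Mean Rrm2 with vehicle was 15.6 ± 4.01 for C57BL6/J, 12.1 ± 2.32 for BXD91/2RwwJ, 8.98 ± 1.76 for BXD100/RwwJ, 6.57 ± 1.03 for NZO/HILTJ, 6.08 ± 0.423 for FVB/NJ, 5.01 ± 1.09 for C3HeB/FeJ and 4.40 ± 0.859 for BALB/CJ. Rrm2 in the other vehicle groups was 4.27 ± 0.853 for 129S1/SVIMJ, 3.99 ± 2.18 for BXD-40/TyJ, 3.75 ± 2.24 for CC019/TauUnc, 3.26 ± 1.10 for CBA/J, 2.83 ± 1.03 for DBA1/J, 2.47 ± 0.377 for A/J and 1.78 ± 0.189 for NOD/SHILTJ. The 3 C57BL6/J vehicle libraries, at 11.5 to 19.5 CPM, lay above all libraries of 12 other strains, and NOD/SHILTJ, at 1.63 to 1.99 CPM, below those of 11. Mean Rrm2 with TCDD was 11.7 ± 5.16 for C57BL6/J, 11.0 ± 1.85 for BXD91/2RwwJ, 10.8 ± 2.01 for BXD100/RwwJ, 6.30 ± 1.83 for FVB/NJ, 6.28 ± 6.40 for 129S1/SVIMJ, 5.48 ± 1.34 for CC019/TauUnc and 4.52 ± 0.846 for NZO/HILTJ. Rrm2 in the other TCDD groups was 4.05 ± 0.719 for CBA/J, 3.95 ± 1.07 for BALB/CJ, 3.61 ± 0.198 for C3HeB/FeJ, 3.34 ± 0.935 for BXD-40/TyJ, 2.248 ± 0.727 for A/J, 2.15 ± 0.811 for NOD/SHILTJ and 1.92 ± 0.441 for DBA1/J. Of the members, Rrm2 had the smallest adjusted p between vehicle groups (8.99e-10, and 6.8e-09 between TCDD groups, edgeR).

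Mcm6 encodes a subunit of the replicative helicase. Mean Mcm6 with vehicle was 12.8 ± 7.11 for C57BL6/J, 11.0 ± 1.49 for NOD/SHILTJ, 8.85 ± 4.34 for BXD-40/TyJ, 8.73 ± 2.51 for BXD91/2RwwJ, 8.20 ± 4.89 for CBA/J, 8.03 ± 2.13 for BXD100/RwwJ and 7.68 ± 3.39 for A/J. Mcm6 in the other vehicle groups was 7.604 ± 2.05 for NZO/HILTJ, 5.73 ± 2.13 for C3HeB/FeJ, 4.60 ± 1.03 for BALB/CJ, 3.81 ± 0.776 for FVB/NJ, 3.07 ± 0.584 for DBA1/J, 3.01 ± 1.94 for CC019/TauUnc and 2.64 ± 0.580 for 129S1/SVIMJ. All 3 129S1/SVIMJ libraries lay below all libraries of 11 other strains, while the C57BL6/J libraries spread from 5.47 to 19.7 CPM. Mean Mcm6 with TCDD was 10.9 ± 8.12 for C57BL6/J, 9.66 ± 2.73 for NOD/SHILTJ, 8.53 ± 1.38 for BXD91/2RwwJ, 8.31 ± 1.89 for NZO/HILTJ, 6.91 ± 3.31 for C3HeB/FeJ, 6.63 ± 0.439 for CBA/J and 6.53 ± 1.21 for BXD100/RwwJ. Mcm6 in the other TCDD groups was 5.43 ± 1.35 for BXD-40/TyJ, 5.05 ± 1.59 for A/J, 4.94 ± 1.21 for BALB/CJ, 4.14 ± 0.469 for FVB/NJ, 4.12 ± 1.25 for CC019/TauUnc, 3.32 ± 2.78 for 129S1/SVIMJ and 3.08 ± 0.618 for DBA1/J. DBA1/J, at 2.36 to 3.45 CPM, lay below all libraries of 9 other strains, and adjusted p was 0.000165 with vehicle and 0.00613 with TCDD (edgeR).

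Gmnn encodes geminin. Mean Gmnn with vehicle was 9.36 ± 1.76 for BALB/CJ, 7.201 ± 1.14 for DBA1/J, 6.96 ± 0.969 for BXD91/2RwwJ, 6.66 ± 0.683 for CC019/TauUnc, 6.64 ± 1.57 for C57BL6/J, 6.35 ± 0.953 for FVB/NJ and 5.54 ± 1.28 for BXD-40/TyJ. Gmnn in the other vehicle groups was 5.42 ± 1.91 for 129S1/SVIMJ, 5.41 ± 1.89 for BXD100/RwwJ, 5.34 ± 0.713 for C3HeB/FeJ, 5.21 ± 0.704 for A/J, 5.17 ± 1.15 for CBA/J, 4.55 ± 0.905 for NZO/HILTJ and 2.77 ± 0.339 for NOD/SHILTJ. The NOD/SHILTJ libraries lay below every library of the 13 other strains, at 2.45 to 3.13 CPM. Mean Gmnn with TCDD was 11.5 ± 4.27 for C57BL6/J, 7.96 ± 0.786 for BALB/CJ, 7.42 ± 0.362 for BXD100/RwwJ, 6.60 ± 1.99 for BXD91/2RwwJ, 6.25 ± 1.51 for NZO/HILTJ, 6.19 ± 1.51 for 129S1/SVIMJ and 5.83 ± 0.333 for FVB/NJ. Gmnn in the other TCDD groups was 5.83 ± 1.27 for CC019/TauUnc, 5.74 ± 2.22 for DBA1/J, 5.30 ± 1.56 for C3HeB/FeJ, 4.75 ± 1.45 for BXD-40/TyJ, 4.72 ± 1.40 for CBA/J, 4.71 ± 0.787 for A/J and 2.29 ± 0.603 for NOD/SHILTJ. The same separation held with TCDD, where NOD/SHILTJ had 1.61 to 2.75 CPM. Adjusted p was 0.000312 with vehicle and 2.47e-06 with TCDD (edgeR).

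Pcna was the member with the least spread between libraries. Mean Pcna with vehicle was 11.0 ± 3.18 for C57BL6/J, 10.7 ± 2.22 for FVB/NJ, 10.6 ± 0.430 for BXD100/RwwJ, 10.2 ± 3.02 for BXD91/2RwwJ, 9.98 ± 0.854 for BXD-40/TyJ, 9.21 ± 1.09 for BALB/CJ and 8.77 ± 1.99 for DBA1/J. Pcna in the other vehicle groups was 8.44 ± 1.58 for NOD/SHILTJ, 8.05 ± 0.306 for A/J, 7.70 ± 1.28 for NZO/HILTJ, 6.99 ± 1.53 for 129S1/SVIMJ, 6.60 ± 1.84 for CC019/TauUnc, 6.38 ± 1.44 for C3HeB/FeJ and 5.77 ± 0.533 for CBA/J. The order ran from C57BL6/J to CBA/J over less than a factor of 2. Mean Pcna with TCDD was 12.2 ± 1.78 for C57BL6/J, 11.1 ± 1.37 for BXD-40/TyJ, 10.7 ± 0.700 for FVB/NJ, 10.3 ± 2.11 for BALB/CJ, 9.97 ± 1.23 for BXD91/2RwwJ, 9.73 ± 1.84 for BXD100/RwwJ and 8.25 ± 0.767 for DBA1/J. Pcna in the other TCDD groups was 7.93 ± 1.14 for A/J, 7.40 ± 1.30 for NOD/SHILTJ, 7.25 ± 0.618 for CBA/J, 7.25 ± 0.904 for 129S1/SVIMJ, 7.09 ± 1.04 for NZO/HILTJ, 7.00 ± 0.882 for CC019/TauUnc and 6.84 ± 1.45 for C3HeB/FeJ. C57BL6/J, at 10.4 to 14.0 CPM, lay above all libraries of 8 other strains, and strains differed in both treatments (adjusted p = 0.000494 and 0.000293, edgeR). Among the other replication genes Tyms, which makes thymidylate, was called in both treatments, Cdt1 in TCDD groups, and Cdc6, Cdc45, Rrm1, Mcm2, Mcm3, Mcm4, Mcm5 and Mcm7 in neither.

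**Figure D2:**
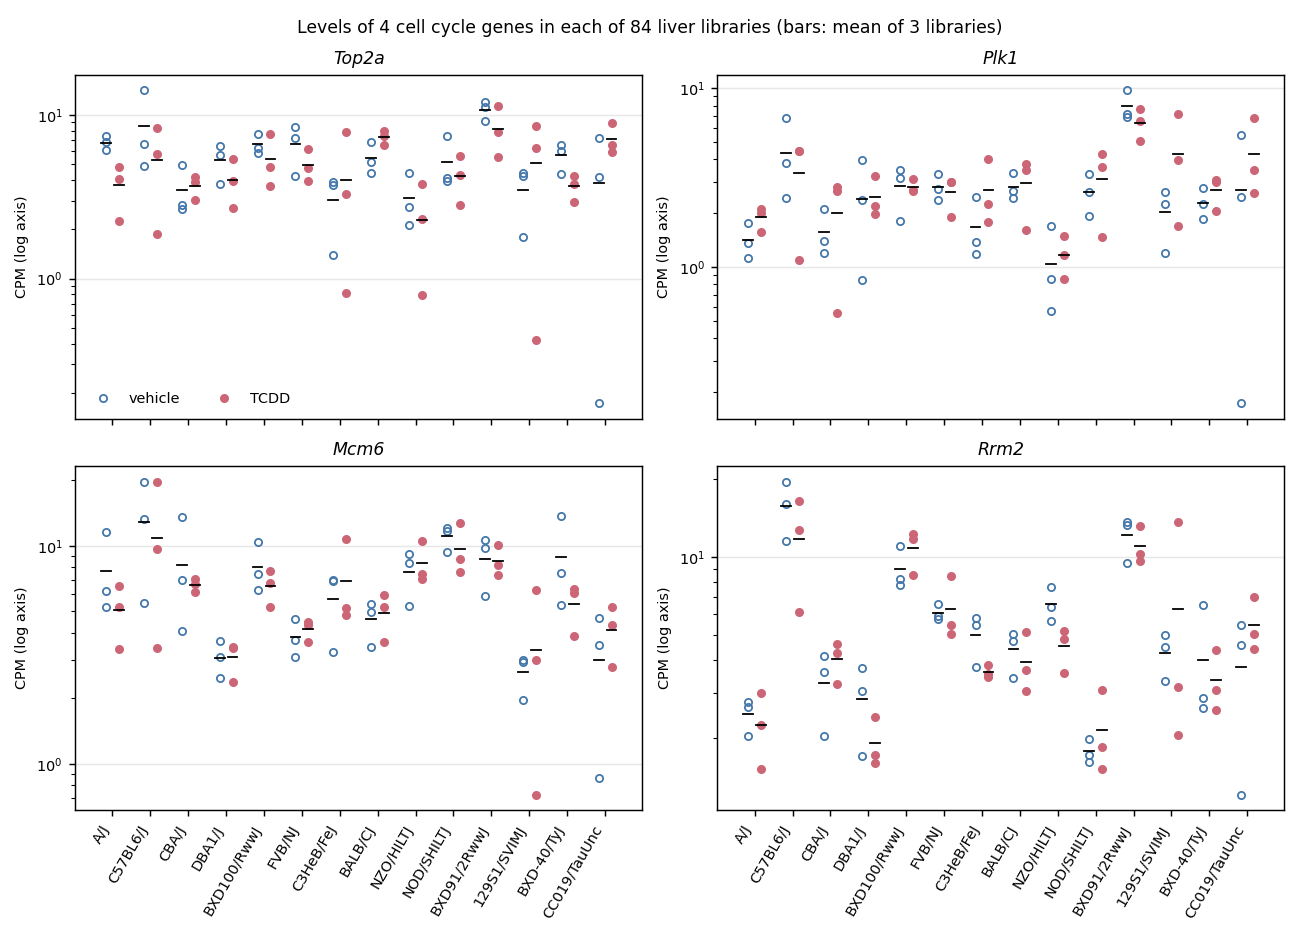
Levels of Top2a, Plk1, Mcm6 and Rrm2 (CPM, log axis) in every library, by strain, with vehicle libraries as open circles, TCDD libraries as filled circles and group means as bars. Plk1 in BXD91/2RwwJ vehicle libraries, at 6.95 to 9.75 CPM, lies above every other vehicle library, and the C57BL6/J library TCDD 3 lies below the others of its strain in all 4 genes.

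On the mitosis side, Cdk1 encodes the kinase that drives entry into mitosis. Mean Cdk1 with vehicle was 9.02 ± 2.11 for BXD91/2RwwJ, 8.82 ± 4.74 for C57BL6/J, 4.33 ± 1.53 for BXD100/RwwJ, 4.14 ± 0.284 for FVB/NJ, 3.91 ± 0.315 for BALB/CJ, 3.70 ± 1.51 for DBA1/J and 3.44 ± 2.31 for CC019/TauUnc. Cdk1 in the other vehicle groups was 3.42 ± 0.619 for BXD-40/TyJ, 3.12 ± 0.556 for NOD/SHILTJ, 2.72 ± 1.14 for CBA/J, 2.68 ± 0.877 for A/J, 2.64 ± 1.17 for NZO/HILTJ, 2.36 ± 0.208 for C3HeB/FeJ and 2.33 ± 0.372 for 129S1/SVIMJ. All 3 BXD91/2RwwJ libraries, at 7.01 to 11.2 CPM, lay above those of 12 other strains. Mean Cdk1 with TCDD was 8.39 ± 1.48 for BXD91/2RwwJ, 5.92 ± 4.22 for C57BL6/J, 4.47 ± 0.370 for BXD100/RwwJ, 4.42 ± 1.71 for NOD/SHILTJ, 4.37 ± 1.90 for CC019/TauUnc, 4.22 ± 1.68 for BALB/CJ and 3.95 ± 3.15 for 129S1/SVIMJ. Cdk1 in the other TCDD groups was 3.64 ± 1.23 for BXD-40/TyJ, 3.59 ± 1.55 for DBA1/J, 3.36 ± 1.37 for CBA/J, 3.15 ± 1.06 for FVB/NJ, 3.14 ± 0.729 for C3HeB/FeJ, 2.68 ± 0.432 for A/J and 1.97 ± 0.624 for NZO/HILTJ. BXD91/2RwwJ lay above 11 strains with TCDD. Cdk1 was called among vehicle groups (adjusted p = 0.00134) and missed the threshold among TCDD groups (adjusted p = 0.0536, and 0.000435 without the 3 lowest libraries, edgeR).

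Ccna2 encodes cyclin A2, which partners CDK2 in S phase and CDK1 in G2. Mean Ccna2 with vehicle was 10.4 ± 1.70 for BXD91/2RwwJ, 8.38 ± 4.32 for C57BL6/J, 6.75 ± 0.950 for BALB/CJ, 6.41 ± 1.81 for BXD100/RwwJ, 6.20 ± 0.750 for FVB/NJ, 5.41 ± 1.52 for A/J and 5.29 ± 1.05 for BXD-40/TyJ. Ccna2 in the other vehicle groups was 4.68 ± 0.659 for NOD/SHILTJ, 4.23 ± 1.01 for DBA1/J, 4.02 ± 3.38 for CC019/TauUnc, 3.86 ± 1.24 for CBA/J, 3.72 ± 0.544 for 129S1/SVIMJ, 3.34 ± 0.193 for NZO/HILTJ and 3.11 ± 0.815 for C3HeB/FeJ. BXD91/2RwwJ, at 8.64 to 12.0 CPM, lay above all libraries of 12 other strains. Mean Ccna2 with TCDD was 7.79 ± 0.840 for BXD91/2RwwJ, 7.15 ± 2.85 for NOD/SHILTJ, 7.03 ± 1.23 for BALB/CJ, 6.93 ± 0.631 for C57BL6/J, 5.33 ± 0.192 for BXD100/RwwJ, 5.29 ± 0.765 for BXD-40/TyJ and 4.84 ± 0.0944 for CBA/J. Ccna2 in the other TCDD groups was 4.65 ± 2.92 for 129S1/SVIMJ, 4.62 ± 0.947 for FVB/NJ, 4.59 ± 0.855 for CC019/TauUnc, 4.01 ± 0.587 for DBA1/J, 3.92 ± 2.22 for C3HeB/FeJ, 3.68 ± 0.394 for A/J and 3.59 ± 1.24 for NZO/HILTJ. Adjusted p was 0.000844 with vehicle and 0.0786 with TCDD, and the latter was 0.00306 without the 3 lowest libraries (edgeR).

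Cdkn3 encodes a phosphatase that acts on cyclin-dependent kinases. Mean Cdkn3 with vehicle was 3.00 ± 1.08 for BXD91/2RwwJ, 2.98 ± 1.80 for C57BL6/J, 1.79 ± 1.82 for CC019/TauUnc, 1.28 ± 0.815 for BXD100/RwwJ, 1.17 ± 0.321 for NOD/SHILTJ, 1.16 ± 0.733 for DBA1/J and 1.09 ± 0.188 for BALB/CJ. Cdkn3 in the other vehicle groups was 1.09 ± 0.504 for A/J, 0.982 ± 0.948 for CBA/J, 0.902 ± 0.512 for FVB/NJ, 0.862 ± 0.443 for BXD-40/TyJ, 0.665 ± 0.145 for 129S1/SVIMJ, 0.644 ± 0.601 for NZO/HILTJ and 0.409 ± 0.269 for C3HeB/FeJ. BXD91/2RwwJ and C57BL6/J stood highest, with large SDs. Mean Cdkn3 with TCDD was 1.55 ± 1.31 for DBA1/J, 1.54 ± 0.591 for NOD/SHILTJ, 1.48 ± 0.360 for BXD91/2RwwJ, 1.48 ± 0.629 for C57BL6/J, 1.22 ± 0.565 for BXD100/RwwJ, 1.16 ± 0.156 for BALB/CJ and 1.11 ± 0.593 for CC019/TauUnc. Cdkn3 in the other TCDD groups was 0.821 ± 0.675 for 129S1/SVIMJ, 0.815 ± 0.340 for BXD-40/TyJ, 0.772 ± 0.293 for CBA/J, 0.771 ± 0.445 for C3HeB/FeJ, 0.530 ± 0.303 for FVB/NJ, 0.312 ± 0.123 for A/J and 0.280 ± 0.268 for NZO/HILTJ. The vehicle strains differed (adjusted p = 0.0229), a call lost without C57BL6/J vehicle 1 or BXD91/2RwwJ vehicle 3 (up to 0.0871, edgeR). The TCDD test missed the threshold (adjusted p = 0.109) and passed it without the 3 lowest libraries (0.0251, edgeR).

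Foxm1 encodes the transcription factor of late cell cycle genes. Mean Foxm1 with vehicle was 4.85 ± 1.23 for BXD91/2RwwJ, 3.97 ± 2.06 for C57BL6/J, 3.51 ± 2.22 for CC019/TauUnc, 3.14 ± 0.646 for FVB/NJ, 3.12 ± 0.188 for BALB/CJ, 3.12 ± 1.40 for NOD/SHILTJ and 2.88 ± 1.73 for BXD100/RwwJ. Foxm1 in the other vehicle groups was 2.82 ± 1.52 for DBA1/J, 2.77 ± 0.290 for 129S1/SVIMJ, 2.46 ± 0.539 for C3HeB/FeJ, 2.40 ± 0.951 for CBA/J, 2.13 ± 0.699 for A/J, 2.01 ± 0.656 for BXD-40/TyJ and 1.44 ± 0.351 for NZO/HILTJ. The NZO/HILTJ libraries, at 1.13 to 1.82 CPM, lay below all libraries of 7 other strains. Mean Foxm1 with TCDD was 4.53 ± 1.96 for CC019/TauUnc, 3.77 ± 2.67 for 129S1/SVIMJ, 3.37 ± 0.867 for BALB/CJ, 3.31 ± 1.24 for BXD91/2RwwJ, 3.24 ± 2.06 for C3HeB/FeJ, 2.99 ± 2.21 for C57BL6/J and 2.78 ± 1.41 for BXD-40/TyJ. Foxm1 in the other TCDD groups was 2.54 ± 1.25 for DBA1/J, 2.49 ± 0.724 for CBA/J, 2.33 ± 0.236 for A/J, 2.29 ± 0.506 for NOD/SHILTJ, 2.29 ± 0.588 for FVB/NJ, 2.21 ± 0.921 for BXD100/RwwJ and 1.31 ± 0.519 for NZO/HILTJ. Neither strain test called Foxm1 (adjusted p = 0.329 and 0.29), while the TCDD test gave 0.0365 without the 3 lowest libraries and 0.105 without those and NZO/HILTJ TCDD 1 (edgeR).

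Aurka encodes the centrosome kinase Aurora A. Mean Aurka with vehicle was 8.26 ± 2.80 for BXD91/2RwwJ, 7.73 ± 2.40 for C57BL6/J, 5.26 ± 1.25 for CC019/TauUnc, 5.04 ± 1.52 for CBA/J, 4.61 ± 0.625 for BALB/CJ, 4.51 ± 0.810 for DBA1/J and 4.17 ± 0.613 for BXD-40/TyJ. Aurka in the other vehicle groups was 3.81 ± 1.51 for BXD100/RwwJ, 3.60 ± 0.839 for FVB/NJ, 3.51 ± 0.249 for C3HeB/FeJ, 3.47 ± 1.23 for NZO/HILTJ, 3.21 ± 0.155 for NOD/SHILTJ, 2.90 ± 0.804 for A/J and 2.38 ± 0.486 for 129S1/SVIMJ. The BXD91/2RwwJ libraries lay above those of 10 other strains, and the 129S1/SVIMJ libraries below those of 10. Mean Aurka with TCDD was 8.02 ± 0.138 for BXD91/2RwwJ, 5.90 ± 2.55 for CC019/TauUnc, 5.03 ± 1.81 for C57BL6/J, 5.00 ± 0.139 for BALB/CJ, 4.72 ± 1.59 for NOD/SHILTJ, 4.33 ± 2.56 for 129S1/SVIMJ and 3.98 ± 1.62 for BXD-40/TyJ. Aurka in the other TCDD groups was 3.67 ± 0.124 for CBA/J, 3.63 ± 0.243 for BXD100/RwwJ, 3.58 ± 0.921 for C3HeB/FeJ, 3.54 ± 0.807 for NZO/HILTJ, 3.45 ± 0.542 for DBA1/J, 2.98 ± 0.390 for FVB/NJ and 2.67 ± 0.119 for A/J. With TCDD the 3 BXD91/2RwwJ libraries fell between 7.94 and 8.18 CPM, above all libraries of 12 other strains. Adjusted p was 4.21e-05 with vehicle and 0.00463 with TCDD, and the latter was 0.213 over the 10 strains that are neither BXD lines nor CC019/TauUnc (edgeR).

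Plk1 encodes Polo-like kinase 1, which acts from mitotic entry to cytokinesis. Mean Plk1 with vehicle was 7.96 ± 1.55 for BXD91/2RwwJ, 4.37 ± 2.26 for C57BL6/J, 2.82 ± 0.896 for BXD100/RwwJ, 2.81 ± 0.490 for BALB/CJ, 2.80 ± 0.474 for FVB/NJ, 2.69 ± 2.65 for CC019/TauUnc and 2.63 ± 0.688 for NOD/SHILTJ. Plk1 in the other vehicle groups was 2.39 ± 1.56 for DBA1/J, 2.29 ± 0.446 for BXD-40/TyJ, 2.02 ± 0.743 for 129S1/SVIMJ, 1.68 ± 0.696 for C3HeB/FeJ, 1.57 ± 0.486 for CBA/J, 1.42 ± 0.328 for A/J and 1.04 ± 0.589 for NZO/HILTJ. With vehicle the BXD91/2RwwJ libraries lay above every library of the 13 other strains, at 6.95 to 9.75 CPM. Mean Plk1 with TCDD was 6.43 ± 1.28 for BXD91/2RwwJ, 4.29 ± 2.22 for CC019/TauUnc, 4.29 ± 2.78 for 129S1/SVIMJ, 3.34 ± 1.95 for C57BL6/J, 3.12 ± 1.47 for NOD/SHILTJ, 2.96 ± 1.19 for BALB/CJ and 2.82 ± 0.266 for BXD100/RwwJ. Plk1 in the other TCDD groups was 2.72 ± 0.565 for BXD-40/TyJ, 2.69 ± 1.16 for C3HeB/FeJ, 2.63 ± 0.633 for FVB/NJ, 2.47 ± 0.667 for DBA1/J, 2.01 ± 1.26 for CBA/J, 1.90 ± 0.285 for A/J and 1.17 ± 0.316 for NZO/HILTJ. With TCDD they lay above 11 strains, and the NZO/HILTJ libraries, at 0.854 to 1.49 CPM, below 10. Adjusted p was 0.00128 with vehicle and 0.0448 with TCDD, the latter ranging from 0.0102 to 0.123 with single libraries left out (edgeR). Both calls were lost over the same 10 strains (adjusted p = 0.0714 and 0.194, edgeR).

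Melk encodes a mitotic kinase and was among the least abundant members. Mean Melk with vehicle was 1.14 ± 0.896 for C57BL6/J, 1.12 ± 0.582 for BXD91/2RwwJ, 0.971 ± 0.491 for NOD/SHILTJ, 0.786 ± 0.297 for BXD-40/TyJ, 0.670 ± 0.498 for A/J, 0.645 ± 0.295 for NZO/HILTJ and 0.645 ± 0.278 for BALB/CJ. Melk in the other vehicle groups was 0.504 ± 0.337 for FVB/NJ, 0.502 ± 0.233 for C3HeB/FeJ, 0.498 ± 0.117 for BXD100/RwwJ, 0.466 ± 0.305 for DBA1/J, 0.442 ± 0.272 for CBA/J, 0.376 ± 0.193 for 129S1/SVIMJ and 0.324 ± 0.182 for CC019/TauUnc. The order had wide overlaps. Mean Melk with TCDD was 1.01 ± 0.456 for BXD91/2RwwJ, 0.681 ± 0.691 for 129S1/SVIMJ, 0.660 ± 0.260 for BALB/CJ, 0.548 ± 0.321 for BXD-40/TyJ, 0.546 ± 0.232 for FVB/NJ, 0.530 ± 0.507 for C3HeB/FeJ and 0.525 ± 0.599 for DBA1/J. Melk in the other TCDD groups was 0.489 ± 0.211 for CC019/TauUnc, 0.429 ± 0.0357 for A/J, 0.429 ± 0.3796 for C57BL6/J, 0.355 ± 0.150 for BXD100/RwwJ, 0.329 ± 0.283 for CBA/J, 0.289 ± 0.158 for NOD/SHILTJ and 0.101 ± 0.0707 for NZO/HILTJ. Adjusted p was 0.529 with vehicle and 0.285 with TCDD (edgeR).

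Kif20a encodes a kinesin of the midzone and cytokinesis. Mean Kif20a with vehicle was 14.0 ± 2.52 for BXD91/2RwwJ, 9.75 ± 4.89 for CC019/TauUnc, 9.37 ± 4.26 for C57BL6/J, 8.96 ± 0.653 for BALB/CJ, 8.74 ± 2.95 for BXD100/RwwJ, 6.51 ± 0.219 for NOD/SHILTJ and 6.42 ± 1.27 for 129S1/SVIMJ. Kif20a in the other vehicle groups was 6.42 ± 1.24 for FVB/NJ, 5.90 ± 1.93 for DBA1/J, 5.82 ± 2.15 for A/J, 5.70 ± 0.590 for BXD-40/TyJ, 5.67 ± 2.35 for CBA/J, 5.17 ± 0.474 for NZO/HILTJ and 3.98 ± 0.868 for C3HeB/FeJ. BXD91/2RwwJ, at 12.0 to 16.8 CPM, lay above all libraries of 11 other strains. Mean Kif20a with TCDD was 12.4 ± 5.06 for CC019/TauUnc, 10.8 ± 1.68 for BXD91/2RwwJ, 10.7 ± 1.94 for BALB/CJ, 9.88 ± 0.579 for BXD100/RwwJ, 8.63 ± 3.08 for C57BL6/J, 8.16 ± 4.56 for 129S1/SVIMJ and 7.83 ± 2.18 for NOD/SHILTJ. Kif20a in the other TCDD groups was 6.97 ± 1.92 for BXD-40/TyJ, 6.55 ± 2.05 for DBA1/J, 6.18 ± 0.672 for CBA/J, 5.69 ± 1.17 for C3HeB/FeJ, 5.56 ± 0.632 for A/J, 5.39 ± 0.943 for NZO/HILTJ and 5.36 ± 1.90 for FVB/NJ. With TCDD, CC019/TauUnc had the highest mean, and adjusted p was 0.000578 with vehicle and 0.00661 with TCDD (edgeR). Over the same 10 strains adjusted p was 0.0797 and 0.138 (edgeR).

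Ube2c encodes the ubiquitin-conjugating enzyme of the anaphase promoting complex. Mean Ube2c with vehicle was 50.3 ± 80.0 for A/J, 12.3 ± 1.62 for BXD91/2RwwJ, 9.15 ± 4.62 for C57BL6/J, 5.86 ± 4.72 for CBA/J, 5.34 ± 1.28 for DBA1/J, 5.31 ± 4.36 for CC019/TauUnc and 5.17 ± 1.59 for FVB/NJ. Ube2c in the other vehicle groups was 4.49 ± 1.41 for BXD-40/TyJ, 4.47 ± 1.07 for NOD/SHILTJ, 4.46 ± 1.90 for BXD100/RwwJ, 3.94 ± 0.478 for 129S1/SVIMJ, 3.54 ± 0.583 for BALB/CJ, 2.81 ± 0.6001 for C3HeB/FeJ and 2.73 ± 0.498 for NZO/HILTJ. The A/J mean rested on A/J vehicle 2 at 142.7 CPM, beside 5.34 and 2.93 CPM in the other A/J vehicle libraries. Mean Ube2c with TCDD was 18.7 ± 17.9 for BXD91/2RwwJ, 7.38 ± 5.88 for CBA/J, 6.71 ± 4.37 for C57BL6/J, 6.44 ± 3.90 for CC019/TauUnc, 5.38 ± 2.00 for BXD-40/TyJ, 5.01 ± 2.83 for NOD/SHILTJ and 4.97 ± 1.21 for BALB/CJ. Ube2c in the other TCDD groups was 4.60 ± 0.528 for BXD100/RwwJ, 4.59 ± 1.04 for DBA1/J, 4.24 ± 3.42 for 129S1/SVIMJ, 4.21 ± 1.07 for C3HeB/FeJ, 3.36 ± 0.694 for A/J, 3.02 ± 0.651 for FVB/NJ and 2.65 ± 0.345 for NZO/HILTJ. The BXD91/2RwwJ mean with TCDD rested on TCDD 2 at 39.4 CPM, beside 7.90 and 8.87 CPM. The 3 libraries highest of 84 in Ube2c, A/J vehicle 2, BXD91/2RwwJ TCDD 2 and CBA/J TCDD 2 (14.2 CPM), were also the 3 highest in summed skeletal muscle markers, at 1994, 363 and 152 CPM, whose part in the result was not tested. Strains differed with vehicle (adjusted p = 1.37e-06) and with TCDD (adjusted p = 0.0475, edgeR), and the latter was 0.68 without BXD91/2RwwJ TCDD 2 and 0.666 over the same 10 strains.

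Mki67 encodes the Ki-67 protein of the mitotic chromosome surface. Mean Mki67 with vehicle was 11.0 ± 4.37 for BXD91/2RwwJ, 10.5 ± 5.31 for C57BL6/J, 9.08 ± 1.75 for BXD100/RwwJ, 8.71 ± 1.23 for A/J, 8.25 ± 2.44 for BXD-40/TyJ, 8.00 ± 6.802 for CC019/TauUnc and 7.64 ± 1.89 for NOD/SHILTJ. Mki67 in the other vehicle groups was 7.39 ± 3.27 for DBA1/J, 7.33 ± 3.82 for FVB/NJ, 5.75 ± 1.60 for BALB/CJ, 5.21 ± 1.49 for NZO/HILTJ, 4.84 ± 2.50 for 129S1/SVIMJ, 4.40 ± 2.18 for C3HeB/FeJ and 3.99 ± 3.03 for CBA/J. The strain at the top lay above all libraries of 1 other strain. Mean Mki67 with TCDD was 9.43 ± 3.51 for CC019/TauUnc, 8.35 ± 2.49 for BXD100/RwwJ, 8.25 ± 2.28 for BXD91/2RwwJ, 8.08 ± 4.28 for NOD/SHILTJ, 7.80 ± 3.89 for BALB/CJ, 7.08 ± 5.38 for 129S1/SVIMJ and 5.87 ± 2.249 for DBA1/J. Mki67 in the other TCDD groups was 5.85 ± 3.84 for C57BL6/J, 5.76 ± 3.35 for FVB/NJ, 5.24 ± 5.83 for C3HeB/FeJ, 4.81 ± 1.81 for BXD-40/TyJ, 4.78 ± 1.60 for A/J, 4.59 ± 1.86 for CBA/J and 3.77 ± 2.67 for NZO/HILTJ. The strains overlapped widely and were not called in either treatment (adjusted p = 0.585 and 0.754, edgeR).

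Top2a encodes topoisomerase II alpha, which untangles sister chromatids. Mean Top2a with vehicle was 10.8 ± 1.48 for BXD91/2RwwJ, 8.56 ± 4.93 for C57BL6/J, 6.76 ± 0.633 for A/J, 6.62 ± 2.16 for FVB/NJ, 6.60 ± 0.922 for BXD100/RwwJ, 5.65 ± 1.16 for BXD-40/TyJ and 5.47 ± 1.21 for BALB/CJ. Top2a in the other vehicle groups was 5.30 ± 1.40 for DBA1/J, 5.17 ± 1.98 for NOD/SHILTJ, 3.86 ± 3.53 for CC019/TauUnc, 3.47 ± 1.45 for 129S1/SVIMJ, 3.46 ± 1.26 for CBA/J, 3.09 ± 1.17 for NZO/HILTJ and 3.01 ± 1.39 for C3HeB/FeJ. With vehicle the BXD91/2RwwJ libraries, at 9.16 to 12.1 CPM, lay above those of 12 other strains. Mean Top2a with TCDD was 8.24 ± 2.90 for BXD91/2RwwJ, 7.30 ± 0.734 for BALB/CJ, 7.11 ± 1.57 for CC019/TauUnc, 5.36 ± 2.03 for BXD100/RwwJ, 5.31 ± 3.23 for C57BL6/J, 5.08 ± 4.19 for 129S1/SVIMJ and 4.94 ± 1.14 for FVB/NJ. Top2a in the other TCDD groups was 4.24 ± 1.42 for NOD/SHILTJ, 4.01 ± 1.36 for DBA1/J, 3.97 ± 3.56 for C3HeB/FeJ, 3.71 ± 1.32 for A/J, 3.70 ± 0.597 for CBA/J, 3.65 ± 0.662 for BXD-40/TyJ and 2.29 ± 1.48 for NZO/HILTJ. Neither test called Top2a with all libraries (adjusted p = 0.0957 and 0.271), and both did without the 3 lowest libraries (adjusted p = 0.00158 and 0.00475, edgeR). Those libraries were picked in part for low levels of these members, so the smaller p-values are in part built in. DESeq2 called Top2a among vehicle groups (adjusted p = 0.0448) and Cdk1, Ccna2 and Cdkn3 among TCDD groups (0.0185, 0.0259 and 0.0347).

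Each strain was next compared with the mean of the other 13, with vehicle and TCDD groups weighted equally. The same libraries entered the strain tests above. Of 630 pairs of a member and a strain, 100 (15.87%) passed the threshold, where 16.5% of such pairs over all genes did. The calls were unevenly spread, with 64 of the 100 in BXD91/2RwwJ, C57BL6/J and NZO/HILTJ. In the other 11 strains 36 of 495 pairs (7.27%) passed, against 16.4% over all genes. Pcna was called in 7 strains and Rrm2 in 6, and Ccne2, Cdc6, Mcm7, Kif23, Cenpe and Mki67 in none.

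**Figure D3:**
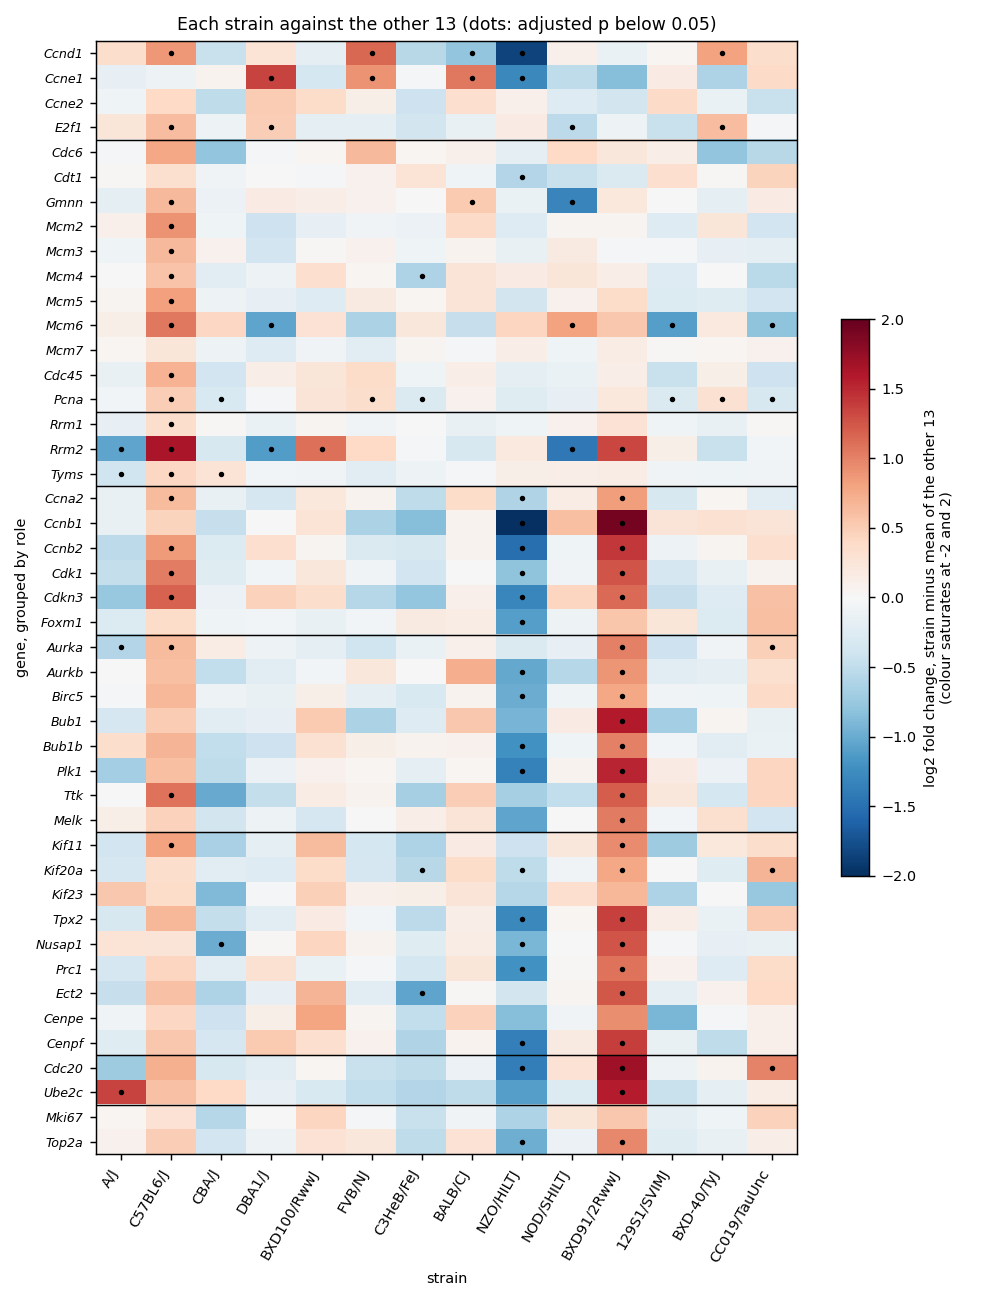
The log2 difference of each strain from the mean of the other 13 strains, for the 45 members ordered by role, with dots on pairs past an adjusted p of 0.05. BXD91/2RwwJ holds 24 higher pairs, C57BL6/J 20 higher and NZO/HILTJ 20 lower, and the BXD91/2RwwJ and NZO/HILTJ pairs are mostly in the mitosis rows.

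BXD91/2RwwJ, a recombinant inbred line, had higher levels of the mitosis genes. The summed level of the 27 mitosis genes in its 6 libraries was lowest at 145.5, in the middle at 164.4 and highest at 197.1 CPM, against a median of 77.2 CPM in the other libraries, of which 5 reached its lowest. Against the other 13 strains, 24 of 45 members were higher and none lower, where 7.35% of all genes were higher and 5.67% lower. They were 23 of 27 mitosis genes, with a median log2 difference of 1.09, and 1 of 14 replication genes, with a median of 0.18.

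Cdc20, an activator of the anaphase promoting complex, was at 17.4, 24.3 and 22.2 CPM with vehicle and 21.1, 13.5 and 14.96 CPM with TCDD in BXD91/2RwwJ. Its median in the other strains was 5.21 CPM, and 5 libraries of other strains exceeded its lowest. Its log2 difference was 1.70 ± 0.30 (SE, adjusted p = 1.65e-05, edgeR). Ccnb1, which encodes cyclin B1, was at 3.60, 3.76 and 2.72 CPM with vehicle and 1.67, 1.43 and 3.91 CPM with TCDD, against a median of 0.720 CPM elsewhere. Its difference was 1.91 ± 0.31 (adjusted p = 2.02e-06, edgeR), and 10 libraries of other strains exceeded its lowest.

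All 8 genes of the mitotic kinase and checkpoint group, which includes Birc5 (survivin), were higher, with Plk1 at 1.52 ± 0.24 (adjusted p = 1.27e-06), Aurka at 1.01 ± 0.15 (5.45e-07) and Bub1 at 1.58 ± 0.37 (0.00116, edgeR). Of the 9 spindle genes 7 were higher, among them Tpx2, a spindle assembly factor, at 1.36 ± 0.24 (adjusted p = 1.09e-05, edgeR). Ube2c was higher by 1.57 ± 0.32 (adjusted p = 0.000192), and without BXD91/2RwwJ TCDD 2 by 0.97 (adjusted p = 0.0792, edgeR). The exception on the replication side was Rrm2, higher by 1.34 ± 0.18 (adjusted p = 2.07e-08, edgeR). Among G1 genes none was called, with Ccnd1 at −0.13 ± 0.23 and Ccne1 at −0.85 ± 0.33 (adjusted p = 0.0754, edgeR). Leaving out any 1 of its libraries left 20 to 23 members higher and at most 1 lower. In BXD91/2RwwJ 3 of 7 tested erythroid markers were also higher and none lower, and 4 of 7 had a positive difference (median log2 difference 0.44). Their summed levels were 109 to 206 CPM against 37.04 to 876 CPM elsewhere, and the median sum was lower than elsewhere. Erythroid calls were not particular to this strain. In A/J and C3HeB/FeJ 3 of 7 were higher, and in BXD100/RwwJ and BALB/CJ 4 of 7. In C3HeB/FeJ and BALB/CJ 1 marker each was lower. None of 10 Kupffer cell and 8 skeletal muscle markers was called in BXD91/2RwwJ, although all 8 muscle markers had a positive difference (median 3.63). Their part in the result was not tested.

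C57BL6/J had higher levels of both replication and mitosis genes, with the larger share of calls among the replication genes. Its summed level of the 14 replication genes was lowest at 75.3, in the middle at 126 and highest at 162.7 CPM, against a median of 79.4 CPM in the other strains, whose libraries overlapped it. In C57BL6/J 20 members were higher and none lower, where 12.2% of all genes were higher and 19.3% changed. They were 11 of 14 replication genes (median log2 difference 0.65) and 7 of 27 mitosis genes (median 0.59), so the medians differed less than the counts.

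Rrm2 in C57BL6/J was at 19.5, 15.9 and 11.5 CPM with vehicle and 16.3, 12.7 and 6.14 CPM with TCDD. The log2 difference was 1.64 ± 0.17 (adjusted p = 1.23e-11, edgeR). Mcm6 was at 19.7, 13.3 and 5.47 CPM with vehicle and 9.67, 19.5 and 3.40 CPM with TCDD, a difference of 1.05 ± 0.22 (adjusted p = 0.000167, edgeR). In both genes the lowest C57BL6/J library was TCDD 3. Mcm2, another helicase subunit, was higher by 0.90 ± 0.20 (adjusted p = 0.000476), Gmnn by 0.65 ± 0.13 (9.85e-05) and Pcna by 0.49 ± 0.09 (4.32e-05, edgeR). On the mitosis side Cdk1 was higher by 1.03 ± 0.22 (adjusted p = 0.000445, edgeR).

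The count in C57BL6/J depended on single libraries. It was 10 without vehicle 1, 12 without TCDD 1, 14 without TCDD 2 and 26 without TCDD 3. Without the 3 lowest libraries 29 members were higher, 12 of 14 replication and 15 of 27 mitosis genes. The share of all genes higher in C57BL6/J in that fit is not given. TCDD 3 is among those libraries, which were picked in part for low levels of these members, so the rise is in part built in. In C57BL6/J 8 of 13 tested lymphocyte and plasma cell markers were also higher (median log2 difference 1.12), with summed levels of 169 to 761 CPM against 242 to 901 CPM elsewhere. Of the neutrophil, erythroid and stellate cell markers 2 of 7, 2 of 7 and 2 of 8 were higher. Of the cholangiocyte markers 3 of 5 were higher, with summed levels of 22.9 to 77.1 CPM against 11.5 to 67.4 CPM. Their part in the result was not tested.

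NZO/HILTJ, an obese strain, had lower levels of the mitosis genes. Their summed level was lowest at 30.4, in the middle at 45.2 and highest at 56.2 CPM, against a median of 85.1 CPM in the other strains, of which 13 libraries were at or below its highest. In NZO/HILTJ 20 members were lower and none higher, where 8.43% of all genes were lower and 18.2% changed. They were 17 of 27 mitosis genes (median log2 difference −0.99), 1 of 14 replication genes (median −0.14) and 2 of 4 G1 genes.

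Ccnd1 in NZO/HILTJ was at 17.6, 39.1 and 18.3 CPM with vehicle and 17.8, 35.1 and 52.2 CPM with TCDD. Elsewhere its median was 102 CPM, and 9 libraries of other strains lay below the highest NZO/HILTJ library. The log2 difference was −1.85 ± 0.27 (adjusted p = 1.74e-07, edgeR). Cdc20 was at 4.97, 2.64 and 1.88 CPM with vehicle and 1.89, 2.96 and 1.31 CPM with TCDD, a difference of −1.38 ± 0.42 (adjusted p = 0.0144, edgeR). The difference was −2.02 ± 0.50 for Ccnb1 (adjusted p = 0.00194), −1.36 ± 0.33 for Plk1 (0.00163), −1.29 ± 0.34 for Ccne1 (0.00409) and −1.10 ± 0.30 for Foxm1 (0.00601, edgeR).

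These contrasts share libraries, since each strain belongs to the comparison group of the others. Leaving out single NZO/HILTJ libraries left 9 to 16 members lower, with 9 without TCDD 1, 11 without vehicle 3, 12 without TCDD 3 and 13 without vehicle 1 or vehicle 2. Beside these, 2 of 8 stellate cell markers and 1 of 7 tested neutrophil markers were lower and none higher. The summed neutrophil level was 2.20 to 14.5 CPM against 6.25 to 947 CPM elsewhere, while 5 of the 7 markers had a positive difference (median log2 difference 0.38). No Kupffer cell marker of 10 was called in NZO/HILTJ. The part of these cells in the result was not tested.

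**Figure D4:**
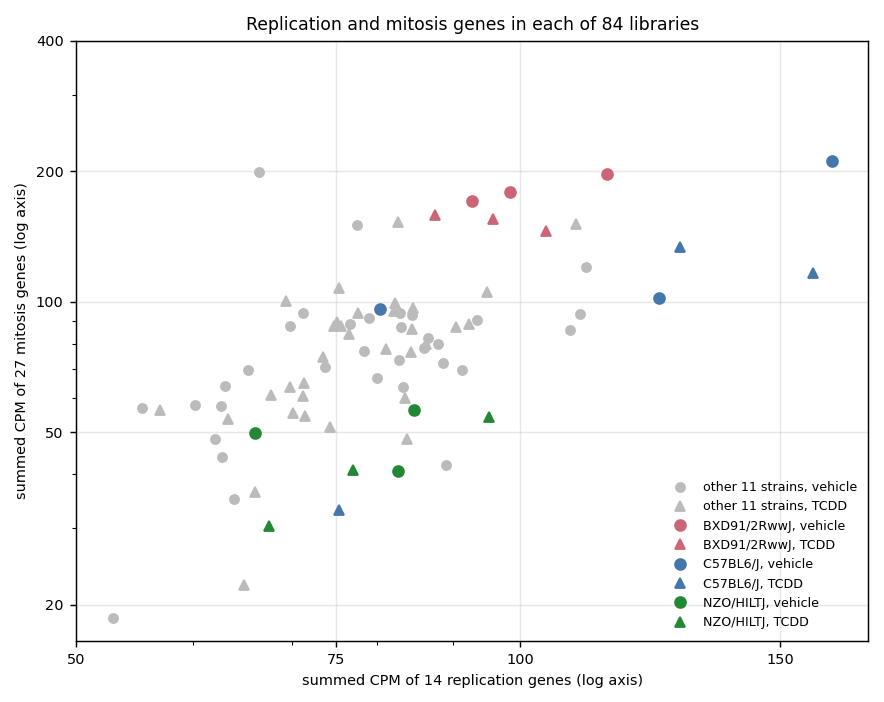
Summed levels of the 14 replication genes (CPM, log axis) and of the 27 mitosis genes (CPM, log axis) in each of the 84 libraries, with 3 strains in colour, vehicle as circles and TCDD as triangles. BXD91/2RwwJ lies between 145.5 and 197.1 CPM on the mitosis sum and NZO/HILTJ between 30.4 and 56.2 CPM, while their replication sums lie within the range of the other strains. The grey circle at 198.8 CPM is A/J vehicle 2, whose mitosis sum without Ube2c was 56.0 CPM.

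The other strains had few calls each. NOD/SHILTJ was lower in Rrm2 (−1.43), Gmnn (−1.32) and E2f1 (−0.53) and higher in Mcm6 (0.80). DBA1/J was higher in Ccne1 (1.34) and E2f1 (0.49) and lower in Rrm2 (−1.12) and Mcm6 (−1.05). FVB/NJ was higher in Ccnd1 (1.15), Ccne1 (0.90) and Pcna (0.35). CBA/J was higher in Tyms (0.28) and lower in Pcna (−0.31) and Nusap1 (−0.99), a spindle protein, and 129S1/SVIMJ was lower in Mcm6 (−1.10) and Pcna (−0.28). C3HeB/FeJ was lower in Mcm4 (−0.62), Pcna (−0.29), Kif20a (−0.55) and Ect2 (−1.05), which acts in cytokinesis. Its count was 0 without TCDD 1 or vehicle 2, 9 without TCDD 2 and 9 without the 3 lowest libraries. In 129S1/SVIMJ 5 members were lower without TCDD 3.

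BALB/CJ was higher in Ccne1 (1.05) and Gmnn (0.53) and lower in Ccnd1 (−0.79). A/J was lower in Rrm2 (−1.05), Aurka (−0.58) and Tyms (−0.39), and its higher Ube2c (1.36) became −0.39 without A/J vehicle 2. BXD100/RwwJ was called in Rrm2 alone (1.10) and BXD-40/TyJ in Ccnd1 (0.81), E2f1 (0.62) and Pcna (0.30), so the other BXD lines did not carry the mitosis pattern of BXD91/2RwwJ past the threshold.

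CC019/TauUnc had 3 mitosis genes higher, Cdc20 (0.99), Kif20a (0.68) and Aurka (0.48), and was lower in Mcm6 (−0.80) and Pcna (−0.33). These calls depended on single libraries. In CC019/TauUnc 7 members were higher and none lower without vehicle 1, 1 higher and 4 lower without vehicle 2, and none higher and 1 lower without TCDD 2. All of these are log2 differences from the other 13 strains with an adjusted p below 0.05 (edgeR). Deposited file names point to references that differ between strains, and the share of reads not assigned uniquely ran from 3.74 to 4.35% over 18 libraries of the BXD lines and from 7.80 to 10.22% over the remaining 66. What this contributes to differences between strains was not tested.

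Members varied more between libraries of a group than most genes did. Their median within-group SD of log2 CPM was 0.736, against 0.382 over all genes tested, and 40 of 45 members lay above that value. The smallest SD was that of Pcna (0.214) and the largest that of Cdc20 (1.14). Their mean level was lower than that of all genes, at a median log2 CPM of 1.78 against 3.18. Without the 3 lowest libraries the SDs were 0.567 and 0.366.

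The members also moved together from library to library. After removal of group means, the median Pearson correlation between members was 0.367 over 84 libraries, and 894 of 990 pairs were positive. Over all pairs of genes the median was −0.003, with a 90th percentile of 0.331. Pairs of mitosis genes had a median of 0.538, pairs of replication genes 0.35, replication with mitosis genes 0.291 and G1 with mitosis genes 0.126. The libraries share depth and composition, and without the 3 lowest libraries the medians were 0.203 over all members, 0.345 within mitosis, 0.286 within replication and 0.141 between them. Then 845 of 990 pairs were positive, and over all pairs of genes the median was −0.002 and the 90th percentile 0.339. The median over all members thus lay above the 90th percentile with all libraries and below it without those 3.

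The comparison of TCDD with vehicle asked whether dioxin changed these levels in pregnant liver. Averaged over the 14 strains, no member was called, where 0.179% of all genes were, and 1 member had an unadjusted p below 0.05 (edgeR). The smallest unadjusted p of any member was 0.0141, and 0.0488 without the 3 lowest libraries (edgeR). DESeq2 called none either and gave 2 members an unadjusted p below 0.05. The median change was −0.0014 over members and −0.0033 over all genes, with 22 members above 0 and 23 below.

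Ccne1 had the smallest p, with a log2 change of −0.39 ± 0.15 (SE) and lower values with TCDD in 9 of 14 strains (adjusted p = 0.665, edgeR). Melk followed at −0.40 ± 0.21 and Cdkn3 at −0.33 ± 0.20, each lower in 9 of 14 strains (adjusted p = 0.84 and 0.881, edgeR). At the other end stood Plk1 at 0.24 ± 0.15, higher in 10 strains. The log2 difference was −0.17 ± 0.17 for Mki67, −0.14 ± 0.15 for Top2a, −0.12 ± 0.12 for Ccnd1, −0.02 ± 0.14 for Foxm1 and 0.01 ± 0.08 for E2f1, none of them called. Nor did the size of the change differ between strains at the threshold for any member, where 0.0309% of all genes did, although Ube2c and Ccnd1 had unadjusted p below 0.05 (adjusted p = 0.538 and 0.577, and 0.698 for Gmnn, edgeR).

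**Figure D5:**
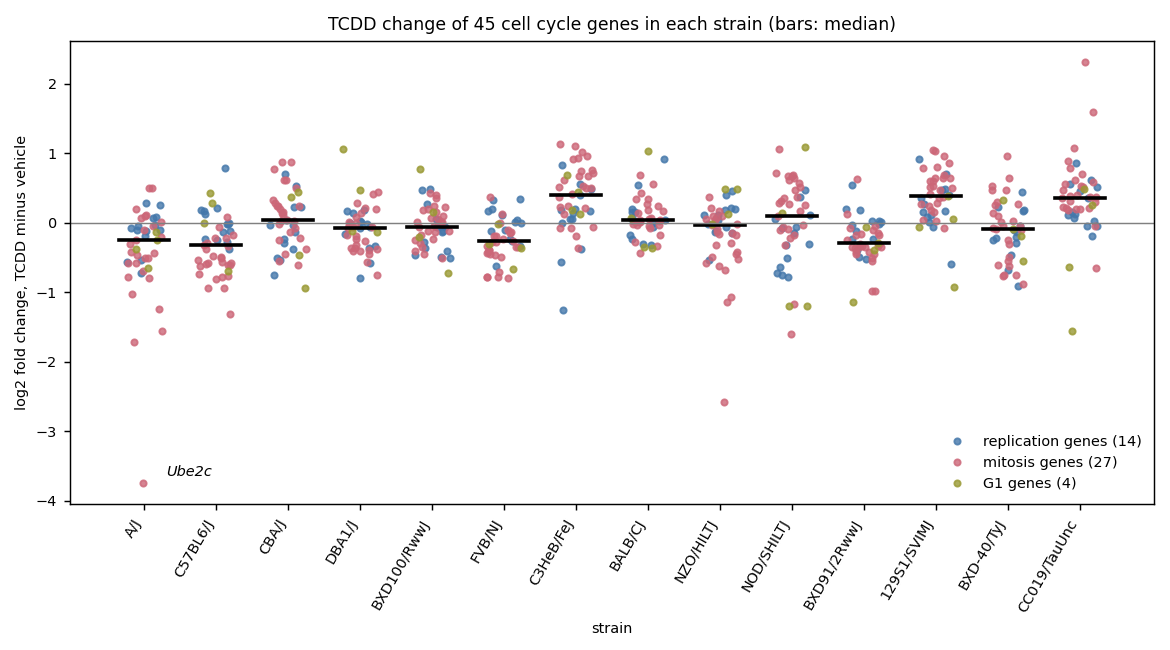
The log2 change with TCDD within each strain for the 45 members, coloured by side, with bars at the median over members. Medians run from −0.32 in C57BL6/J to 0.39 in C3HeB/FeJ, single members from −3.75 (Ube2c in A/J) to 2.32 (Bub1 in CC019/TauUnc), and only Ube2c in A/J passes an adjusted p of 0.05.

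Within strains, 1 of 630 pairs passed the threshold, where 0.228% of such pairs over all genes did. Ube2c in A/J fell by 3.75 ± 0.78 (adjusted p = 0.0094, edgeR), where 0.494% of all genes changed in A/J. The A/J libraries had 5.34, 142.7 and 2.93 CPM with vehicle and 2.59, 3.53 and 3.95 CPM with TCDD. The groups overlapped. Without A/J vehicle 2 the change was −0.26 (adjusted p = 1), and without any 1 of the TCDD libraries it missed the threshold, at −3.58 to −3.89 (adjusted p = 0.0849 to 0.132, edgeR). The authors' deposited table also lists Ube2c in A/J as its only member with an adjusted p below 0.05, with a log2 fold change of −3.75 and an adjusted p of 6.76e-05.

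A further 18 pairs had an unadjusted p below 0.05, and 7 of all 19 fell in NOD/SHILTJ. There 1.91% of all genes were called, at an adjusted p below 0.05, which is a different threshold. The share of all genes at an unadjusted p below 0.05 is not given. These counts are therefore not read as a result about the members. Ccnd1 in NOD/SHILTJ was at 129, 183 and 188 CPM with vehicle and 63.4, 109.8 and 33.3 CPM with TCDD. The groups did not overlap. The log2 change was −1.19 ± 0.44 with an adjusted p of 0.122, and 0.0491 when the 4 libraries lowest in the mitosis sum, all of other strains, were left out (edgeR). The log2 differences there were −1.20 for Ccne1, −1.60 for Melk, 1.09 for Ccne2, 0.72 for Ccna2, 0.67 for Aurka and 0.47 for Tyms, with adjusted p from 0.196 to 0.261 (edgeR).

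In DBA1/J the Ccnd1 difference had the other sign, at 1.07 ± 0.44 (adjusted p = 1, edgeR), with 79.6 ± 28.4 CPM under vehicle and 167.01 ± 39.2 CPM under TCDD. In C57BL6/J Gmnn was at 6.64 ± 1.57 CPM with vehicle and 11.5 ± 4.27 CPM with TCDD, a log2 difference of 0.79 ± 0.26 that missed the threshold (adjusted p = 0.193, edgeR). Its TCDD libraries ran from 7.92 to 16.2 CPM, the highest being TCDD 3, and no difference without that library is given.

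The direction over all members differed between strains without any further call. In C3HeB/FeJ 36 of 45 members had higher values with TCDD (median log2 change 0.39), in 129S1/SVIMJ 40 (0.39) and in CC019/TauUnc 38 (0.36). Of all genes 51.3, 50.2 and 51.2% were higher in these strains, in the same order. In C57BL6/J 9 of 45 members had higher values (−0.32), in BXD91/2RwwJ 8 (−0.29), in FVB/NJ 11 (−0.27) and in A/J 11 (−0.24). There 51.4, 48.1, 47.8 and 47.1% of all genes were higher. Over all 14 strains 6 medians were positive and 8 negative. Without the 3 lowest libraries the CC019/TauUnc median was −0.06, with 18 of 45 members higher, the C57BL6/J median −0.02, with 22 higher, and the 129S1/SVIMJ median 0.74, with 41 higher. Single libraries turned the sign in 3 of these strains, with a 129S1/SVIMJ median of −0.06 without TCDD 3, a CC019/TauUnc median of −0.04 without vehicle 1 and a C57BL6/J median of 0.03 without vehicle 1. In C3HeB/FeJ, BXD91/2RwwJ, FVB/NJ and A/J the median kept its sign without any 1 library. Since members move together from library to library, these counts are not independent observations.

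Further cell cycle genes, which are not members, were compared in the same way. Of 38 tested mitosis genes among them, 22 were higher and 1 lower in BXD91/2RwwJ (median log2 difference 0.83), and 18 lower and 2 higher in NZO/HILTJ (median −0.78). In C57BL6/J 8 were higher (median 0.56). Of 33 replication genes 7 were higher in C57BL6/J, 6 higher in NZO/HILTJ, and 1 higher and 1 lower in BXD91/2RwwJ, with medians of 0.21, 0.11 and 0.09.

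Pttg1, which encodes securin, the inhibitor of separase, ran from 2.49 ± 0.29 CPM in 129S1/SVIMJ to 22.2 ± 1.29 CPM in C57BL6/J with vehicle (adjusted p = 9.94e-24, edgeR). Cenpm, a kinetochore protein, ran from 3.37 ± 0.125 CPM in A/J to 54.7 ± 22.8 CPM in CC019/TauUnc (adjusted p = 5.79e-17), and Cenpa, the centromeric histone, from 3.35 ± 0.706 CPM in 129S1/SVIMJ to 11.7 ± 0.527 CPM in BXD91/2RwwJ (5.08e-08, edgeR). Ccnf, which encodes cyclin F, ran from 3.07 ± 0.547 CPM in BALB/CJ to 15.9 ± 1.77 CPM in BXD91/2RwwJ (adjusted p = 3.17e-08, edgeR). The counts of these lists stand beside the 46.8% of all genes that differed between vehicle strains and are not read as results about the lists. Among other cyclins and kinases 4 of 10 differed between vehicle strains, including Cdk4 and Cdk6.

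Of 5 tested inhibitors of cyclin-dependent kinases 3 differed between vehicle strains. Cdkn1a, which encodes p21, ran from 3.59 ± 0.343 CPM in FVB/NJ to 59.5 ± 43.6 CPM in BXD91/2RwwJ (adjusted p = 7.75e-06), and Cdkn2c, which encodes p18, from 4.86 ± 0.156 CPM in NZO/HILTJ to 20.9 ± 2.37 CPM in BXD91/2RwwJ (2.52e-06, edgeR). Both inhibitors were thus highest in the strain with the highest mitosis genes, and against the other 13 strains they were higher there by 2.29 ± 0.31 and 0.73 ± 0.13 (adjusted p = 6.09e-08 and 9.16e-06, edgeR). Cdkn1c ran from 4.56 ± 0.796 CPM in CC019/TauUnc to 25.1 ± 2.65 CPM in BALB/CJ (adjusted p = 2.77e-08, edgeR).

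Among the RB, E2F and DREAM factors 10 of 18 differed between vehicle strains, led by E2f6, E2f2 and E2f7, and E2f7, a repressor, was highest in NZO/HILTJ at 2.61 ± 0.997 CPM and lowest in CC019/TauUnc at 0.511 ± 0.143 CPM (adjusted p = 0.00142, edgeR). Of 33 other replication genes 15 differed, led by Mcm10, Orc6 and Dut, and of 38 other mitosis genes 19. Of 15 genes of hepatocyte growth drive 7 differed, with Egfr, the epidermal growth factor receptor, running from 68.4 ± 9.99 CPM in BALB/CJ to 475 ± 83.3 CPM in NOD/SHILTJ (adjusted p = 3.97e-10), and Igf1 and Tgfa following. Of 10 targets of p53 5 differed, led by Bbc3, Bax and Trp53inp1.

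No gene of these lists was called in the average TCDD effect, and 4 were called within a strain. The lists held 10, 5, 18, 33, 38, 15 and 10 tested genes, each in 14 strains, and 0.228% of such pairs over all genes were called. The count is not read as a result about the lists. In NOD/SHILTJ, where 1.91% of all genes changed, Wee1, the kinase that restrains CDK1, fell by 1.99 ± 0.53 (adjusted p = 0.0378, edgeR). Igf1r, the receptor for IGF1, fell there by 2.14 ± 0.60 (adjusted p = 0.043, edgeR). In C57BL6/J Ctgf, a matricellular growth factor, rose by 2.50 ± 0.60 (adjusted p = 0.0341, edgeR), where 0.401% of all genes changed. In BXD-40/TyJ E2f4, a repressing E2F factor, rose by 0.70 ± 0.16 (adjusted p = 0.0409, edgeR), where 0.235% of all genes changed.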

How the data were processed

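Liver RNA of 84 libraries was analysed from the deposited counts per gene, which are whole numbers of reads that the authors had assigned to Ensembl genes. Per the submitters' processing notes the tools were FastQC 0.11.5, Trimmomatic 0.38, Bowtie2 2.3.2.25, HTSeq 0.6.1 and DESeq2, given as version 3.8, with genome build mm9. Per the labels' protocols, every RNA had an integrity number of 7 or above, and the library kit was NEBNext Ultra RNA. The authors' deposited table gives a log2 fold change, a p-value and an adjusted p-value for TCDD against vehicle in each strain, per the file headers, and it paired gene identifiers with symbols here. Reads in no gene were 46.74 to 52.62% of the reads, ambiguous reads 0.442 to 1.408%, and these rows stayed out of library sizes.

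Counts were fitted with edgeR 4.0.16 in R 4.3.3 (TMM scaling, filterByExpr over the 28 groups, robust quasi-likelihood fit, 1 coefficient per group), and p-values were adjusted by the Benjamini-Hochberg method over 16195 genes within each test or contrast. A call is an adjusted p below 0.05. CPM is the count of a gene in each 1 M gene counts of the library. Log2 CPM for spreads and correlations was TMM-scaled with a prior count of 1. Exon lengths and promoters came from RefSeq and annotation tables of GRCm38, whose coordinates were not mixed with mm9.

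Groups follow the labels' strain and dose. Replicate numbers follow accession order and only name libraries. The members and gene lists were chosen with earlier results of these data known. Values in every group are given for Mki67, Top2a, Ccnd1, Foxm1 and E2f1, for the 12 members with the smallest p between vehicle strains, for the 3 with the smallest p in the average and in the strain by treatment test, and for members called within a strain. The libraries left out together were chosen after the data were seen, in part by a gene that is not reported here. The alternatives were DESeq2 1.42.0, median-ratio size factors, no filter on low counts, no robust estimation, a threshold of 0.01, and leaving out single libraries, sets of libraries or strains. The fitting script was tested on simulated data.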

Additional observations from a re-analysis of the deposited data

How the results depend on the processing

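No paired analysis was possible because replicate numbers were given in accession order and tie no library to a library of another group. The 24 members called between vehicle strains became 13 without the BXD lines and CC019/TauUnc, where 38.1% of all genes were called. At an adjusted p below 0.01 the 24 became 15, and the 16 called between TCDD strains became 9. The share of all genes at 0.01 is not given. Alternatives chosen after seeing the data were to leave out the 3 lowest libraries, or those 3 with NZO/HILTJ TCDD 1. They gave 30 and 26 calls between TCDD strains, where 45.1% and 43.4% of all genes were called. With single libraries left out the counts ran from 19 to 28 with vehicle and from 10 to 20 with TCDD, the lowest without NZO/HILTJ TCDD 1 or TCDD 3. The 100 calls of a strain against the other 13 became 60 at 0.01, again without the share of all genes. Without the BXD lines and CC019/TauUnc there were 66 among 450 pairs of the remaining 10 strains, which had held 67 of the 100. That fit also changed the strains each strain was compared with. Whether the same pairs were called, and the share of all genes, are not given. The 100 calls ran from 89 to 106 with single libraries left out. The 1 call within a strain became 0 without C57BL6/J TCDD 3, A/J vehicle 2 and BXD-40/TyJ vehicle 1, and 2 without the 4 lowest libraries, and ran from 0 to 1 with single libraries left out. No member was called in the average or in the strain by treatment test under any alternative run.

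Average TCDD changes near 0, none of them called, changed sign. Without C57BL6/J TCDD 3 these were Foxm1 (0.006765), Aurka (0.005629) and Gmnn (−0.004354). Without that library, A/J vehicle 2 and BXD-40/TyJ vehicle 1 they were Foxm1 (0.005404), Rrm2 (0.01825), Ube2c (0.1295) and Gmnn (−0.003575). Without the 3 lowest libraries they were Foxm1 (0.01264), Aurka (0.02551) and Ccna2 (−0.004179), and without the 4 lowest Foxm1 (0.03091) and Aurka (0.00758). With single libraries left out the change ran from −0.07826 to 0.01762 for Foxm1, −0.0181 to 0.03995 for E2f1, −0.2465 to 0.08767 for Ube2c, −0.04976 to 0.02108 for Aurka, −0.003795 to 0.04316 for Gmnn and −0.0375 to 0.0599 for Ccna2. The causes were not tested. Depth limits the 16 members with a median under 30 counts most.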
